A study of Mus musculus with 10 samples.

Results

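The transcripts of 39 mouse genes that copy DNA, separate chromosomes and divide the cell were followed through 5 groups of neonatal heart cells. The genes were taken by symbol from a list of cell cycle genes, which was chosen with earlier results of these data known. Of the 39, 38 had counts and are described here, out of 21513 genes in the table; Prc1 was not analysed here. All 38 passed the filter on low counts, which left 15740 genes for testing.

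The groups were primary cardiomyocytes (Neo_CM, called cardiomyocytes below), 3 groups of induced cardiomyocyte-like cells (Neo_iCM, called iCMs), and cardiac fibroblasts (Neo_CF, called fibroblasts). All were wild type primary cells from hearts of mice aged P1 to P3. The iCMs carried MGT, the reprogramming factors Mef2c, Gata4 and Tbx5, and received ZLN005, GW501516 or DMSO, the solvent. ZLN005 is known as an activator of transcription of the PGC-1alpha gene, and GW501516 as an agonist of the nuclear receptor PPARdelta. Each group had 2 libraries of bulk RNA. The iCMs and the fibroblasts were collected at day 14 and the cardiomyocytes at day 3, so that cell type and day in culture cannot be told apart in any comparison with cardiomyocytes. The labels of the fibroblasts name neither a vector nor DMSO, so the factors, the vector and the solvent cannot be told apart when DMSO iCMs are set against fibroblasts. Doses, the share of cells in each culture that took on a cardiomyocyte state, and whether libraries came from separate animals or cultures, are not stated in the labels. The labels' cell type field reads cardiac fibroblast for every sample, and the cardiomyocytes were identified by their titles. Myh6, the main myosin heavy chain of the working myocardium, averaged 9645 ± 7.25 CPM (counts scaled to library size) in cardiomyocytes and 40.2 ± 1.68 CPM in fibroblasts (SD, n = 2 each).

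Cells that divide switch on these genes in waves. E2F factors, released from the retinoblastoma proteins by cyclin and kinase activity, turn on the genes of DNA replication at the start of S phase. B-MYB and FOXM1, acting with the MuvB complex, turn on the mitotic genes in G2. Cells that leave the cycle shut both waves off. Mouse cardiomyocytes still make DNA and divide around birth and lose this capacity within the first weeks of life, whereas cardiac fibroblasts keep it.

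Between 39065969 and 61886463 reads were counted per library. Counts of single members ranged from 61 for Cdc25c to 11025 for Mki67, so no member was near the limit of detection. The libraries of a group agreed least among fibroblasts, with r = 0.984 over log2 CPM, against 0.991 to 0.993 in the other groups. Fibroblast replicate 1 was above replicate 2 for 35 of 38 members, by a median of 0.22 on the log2 scale. The summed level of 11 macrophage markers was 2994 CPM in fibroblast replicate 1 and 502 CPM in replicate 2. The same sum was 27.7 and 30.1 CPM in cardiomyocytes, 110 and 113 CPM in ZLN005 iCMs, 109 and 109 CPM in GW501516 iCMs, and 780 and 811 CPM in DMSO iCMs. No macrophage marker in the table was at 0 in any library. The part of macrophages in the member values was not tested.

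Cell cycle transcripts were most abundant in cardiomyocytes, intermediate in fibroblasts and lowest in iCMs. Together the 38 members made up 0.251% and 0.251% of the counts in the 2 cardiomyocyte libraries. They made up 0.0719% and 0.0717% in ZLN005 iCMs, 0.0737% and 0.0734% in GW501516 iCMs, 0.0864% and 0.0853% in DMSO iCMs, and 0.134% and 0.109% in fibroblasts. Exact (Clopper-Pearson) 95% intervals, which cover counting error only, reached over both libraries from 0.249% to 0.253% in cardiomyocytes, 0.071% to 0.0728% in ZLN005 iCMs, 0.0726% to 0.0745% in GW501516 iCMs and 0.0845% to 0.0872% in DMSO iCMs. In fibroblasts they were 0.133% to 0.135% for replicate 1 and 0.109% to 0.11% for replicate 2. For 29 of 38 members the group means ran in the order cardiomyocytes, fibroblasts, DMSO iCMs, GW501516 iCMs, ZLN005 iCMs, from high to low. For 5 more the order was the same with the 2 compound groups exchanged. The remaining 4 were Ccne1, Mcm6, E2f1 and Cenpa, each with an order of its own. Cenpa, highest in the compound groups, weighed unequally in the summed shares. It held 4817 of 28094 member counts in ZLN005 replicate 1 and 5021 of 30826 in GW501516 replicate 1. In DMSO replicate 1 it held 4095 of 46156, and 1550 of 81900 in fibroblast replicate 1. In bulk RNA, fewer dividing cells and less of these transcripts per dividing cell cannot be told apart.

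**Figure D1:**
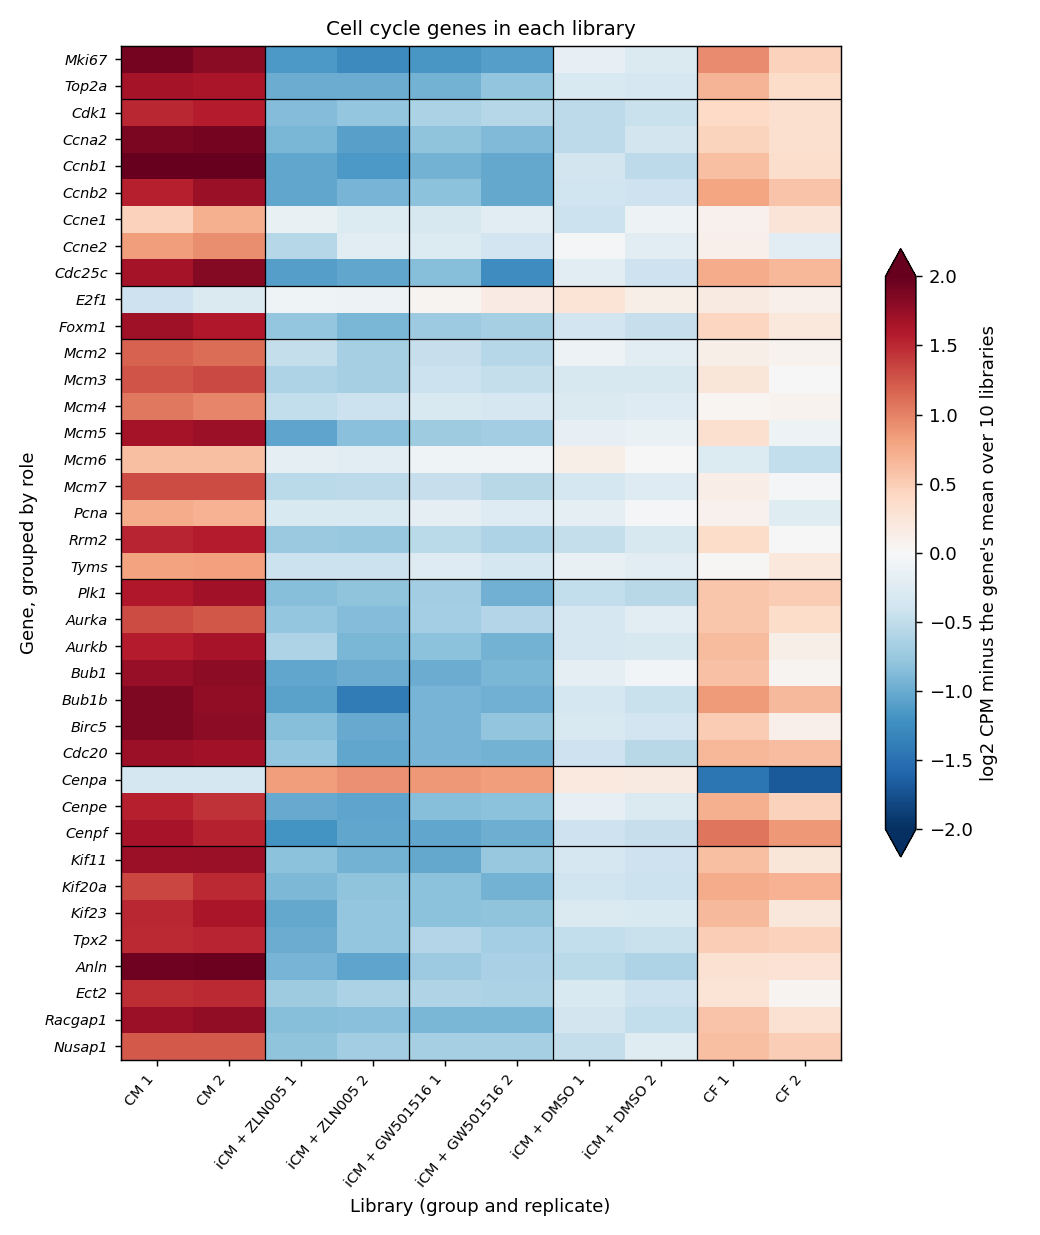
Level of each of the 38 genes in each of the 10 libraries, as log2 CPM minus the gene's mean over all libraries; genes run down by role and libraries run across by group. Most rows are highest in the 2 cardiomyocyte libraries and lowest in the iCM libraries, and the rows of Cenpa and E2f1 run against the others.

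The members that cells use as landmarks of the cycle show this order in single libraries. Mki67, whose protein coats mitotic chromosomes and is the standard stain for dividing cells, had 244 and 225 CPM in cardiomyocytes, 29.0 and 26.8 CPM in ZLN005 iCMs, 28.8 and 30.2 CPM in GW501516 iCMs, 57.8 and 53.2 CPM in DMSO iCMs, and 125 and 89.2 CPM in fibroblasts. The 2 compound groups overlapped for Mki67 and every other pair of groups was separate. Top2a, the topoisomerase that untangles sister chromatids, had 216 and 210 CPM in cardiomyocytes, 34.2 and 34.3 CPM in ZLN005 iCMs, 35.3 and 39.4 CPM in GW501516 iCMs, 55.3 and 54.0 CPM in DMSO iCMs, and 109 and 87.4 CPM in fibroblasts. Cdk1, the kinase that drives entry into mitosis, had 90.6 and 94.6 CPM in cardiomyocytes, 17.6 and 18.7 CPM in ZLN005 iCMs, 20.5 and 21.5 CPM in GW501516 iCMs, 22.2 and 23.5 CPM in DMSO iCMs, and 41.8 and 39.9 CPM in fibroblasts. For Top2a and Cdk1 no 2 groups overlapped, and for Cdk1 the 3 iCM groups lay close together. Cdc20, which activates the anaphase-promoting complex, had 54.9 and 54.2 CPM in cardiomyocytes, 9.81 and 8.21 CPM in ZLN005 iCMs, 8.82 and 8.78 CPM in GW501516 iCMs, 12.6 and 11.4 CPM in DMSO iCMs, and 26.7 and 25.8 CPM in fibroblasts. Anln, the anillin that links actin and septins in the cleavage furrow, had 168 and 170 CPM in cardiomyocytes, 23.0 and 21.1 CPM in ZLN005 iCMs, 26.5 and 27.9 CPM in GW501516 iCMs, 30.02 and 28.5 CPM in DMSO iCMs, and 53.6 and 53.0 CPM in fibroblasts. The 2 compound groups overlapped for Cdc20 and were separate for Anln.

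**Figure D2:**
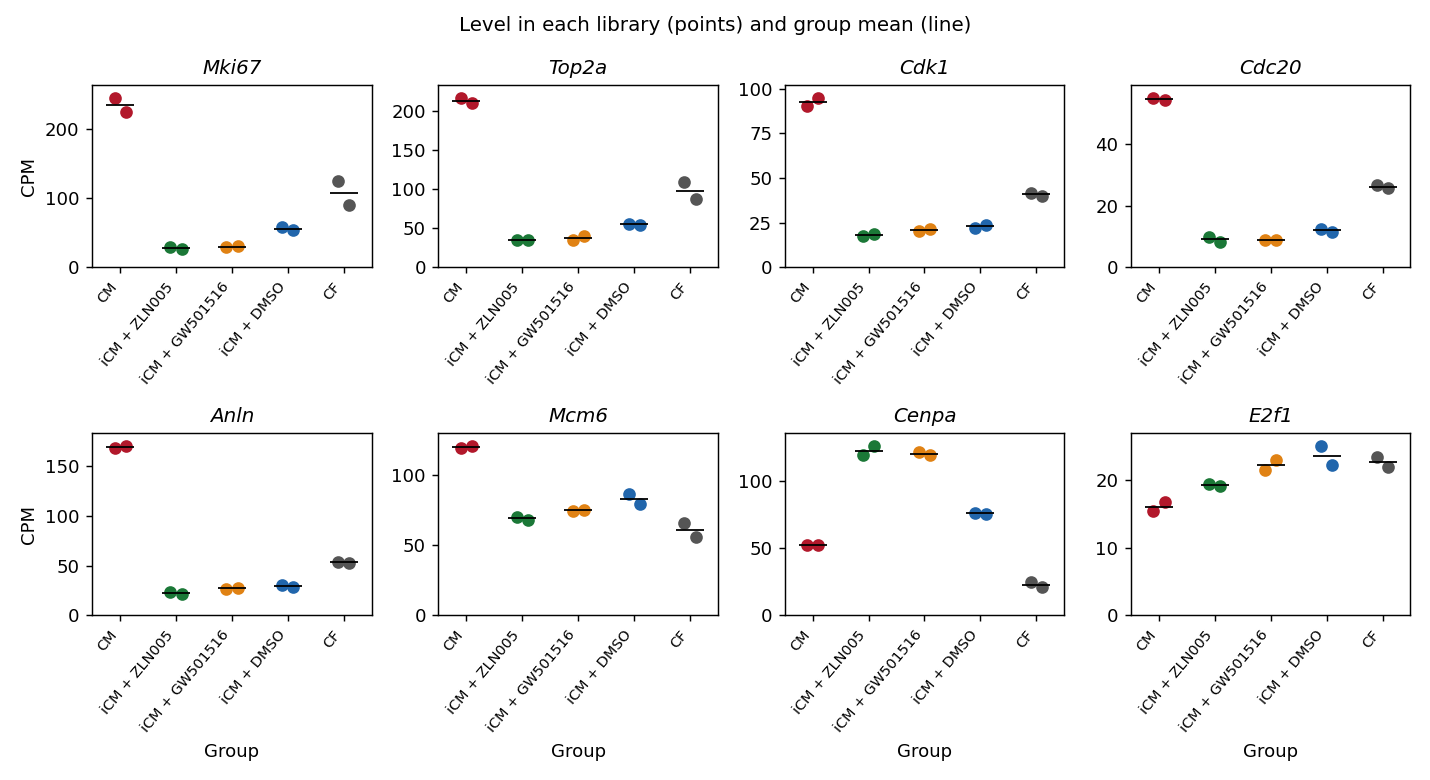
CPM of 8 genes in each library (points) with the group mean (line), for cardiomyocytes (CM), iCMs with ZLN005, GW501516 or DMSO, and fibroblasts (CF). Mki67, Top2a, Cdk1, Cdc20 and Anln are highest in cardiomyocytes and lowest in iCMs, whereas Cenpa is highest in the iCMs with a compound and E2f1 is lowest in cardiomyocytes.

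The promoters of 4 members that were highest in cardiomyocytes, intermediate in fibroblasts and lowest in the 3 iCM groups, and of Mcm6, which was lowest in fibroblasts, are shown because DNA motifs known to drive the replication and mitotic waves can be read in them. Each stretch is the 150 bases before the start of the gene in RefSeq on GRCm38.p6, 5′ to 3′ on the gene's strand. They are chr10:69352913-69353062 on the minus strand for Cdk1, chr11:99024190-99024339 on the minus strand for Top2a, chr4:118437344-118437493 on the minus strand for Cdc20, chr19:37376232-37376381 on the plus strand for Kif11 (a kinesin that pushes the spindle poles apart) and chr1:128359706-128359855 on the minus strand for Mcm6 (a subunit of the replicative helicase). Capitals mark matches, on either strand, to the cell cycle genes homology region or CHR (TTTGAA or TTCGAA), to the CCAAT box (CCAAT), or to an E2F site (TTTCCCGC, TTTGGCGC, TTTGCCGC or TTTCGCGC).
Cdk1: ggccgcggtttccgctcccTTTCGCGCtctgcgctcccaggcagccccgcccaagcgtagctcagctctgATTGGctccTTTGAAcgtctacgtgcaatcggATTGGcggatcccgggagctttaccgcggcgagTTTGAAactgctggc
Top2a: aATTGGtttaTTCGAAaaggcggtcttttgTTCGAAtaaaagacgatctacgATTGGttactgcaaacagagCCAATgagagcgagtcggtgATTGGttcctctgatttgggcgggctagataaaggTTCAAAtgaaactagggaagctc
Cdc20: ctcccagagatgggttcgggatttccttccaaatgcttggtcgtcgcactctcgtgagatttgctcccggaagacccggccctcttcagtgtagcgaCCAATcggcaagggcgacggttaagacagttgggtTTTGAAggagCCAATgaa
Kif11: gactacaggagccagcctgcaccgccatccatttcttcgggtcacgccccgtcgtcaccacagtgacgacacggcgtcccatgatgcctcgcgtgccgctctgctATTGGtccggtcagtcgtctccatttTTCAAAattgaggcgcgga
Mcm6: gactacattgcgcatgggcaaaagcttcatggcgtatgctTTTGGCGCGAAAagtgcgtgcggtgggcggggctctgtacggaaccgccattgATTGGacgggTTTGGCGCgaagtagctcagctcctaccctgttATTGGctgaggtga
The stretches of Cdk1, Top2a, Cdc20 and Kif11 each hold at least 1 CHR and at least 1 CCAAT box. That of Mcm6 holds 2 CCAAT boxes and 3 E2F matches but no CHR, and 2 of its E2F matches overlap each other. RefSeq promoters, from 250 bases before to 50 bases after the start, were found for 30 of the 38 members. A CHR stood in 18 of the 30 (60.0%), against 21.7% of 27025 genes with a promoter in the same table. Those 27025 were not limited to the 15740 genes tested here, so they are not matched to the members in expression or gene type. Ccnb1, Cenpe and Rrm2, whose group means ran in the same order as those of Cdk1, were among the members without a CHR. A CCAAT box stood in 24 of 30 (80.0%), against 41.1% of all genes, and an E2F match in 5 of 30 (16.7%), against 2.6%. All 5 with an E2F match were Cdk1 or subunits of the replicative helicase. Among them Mcm3 and Mcm5, like Mcm6, held CCAAT boxes but no CHR. Unlike those of Mcm6, the group means of Mcm3 and Mcm5 ran in the order most members shared. In the 250 bases before the start alone, the CHR share was 33.3% for the members, against 19.6% for all genes. Matches of different motifs shared a base in 1 of 32 member promoters. E2f1 had no match to the exact letters of any of the 3 motifs in its window, and Cenpa had 1 CHR and 2 CCAAT boxes. These are matches to the exact letters given above, so other forms of a site were not counted, and binding was not measured. Whether motifs go with the order of group means was not tested.

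DMSO iCMs, which carry the reprogramming factors, had lower levels of most members than fibroblasts. Of 38 members, 32 fell and 2 rose at an adjusted p under 0.05 (edgeR's quasi-likelihood test, Benjamini-Hochberg adjustment over all tested genes). Of all 15740 genes, 19.5% fell and 19.9% rose. The median member change was -0.75 on the log2 scale, against -0.01 for all genes. For 33 members both DMSO libraries lay below both fibroblast libraries, as they did for 33.7% of all genes, and for 2 both lay above (33.6% of all genes). The falls were larger among mitotic than among replication genes: the median log2 change was -0.87 for 8 spindle motor and cytokinesis genes, -0.74 for 7 mitotic kinases and checkpoint genes, and -0.31 for 9 genes of the helicase, the sliding clamp and nucleotide supply. That difference between roles was not tested.

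Among the cyclins, Ccnb2, the partner of Cdk1 at the Golgi, changed most, by -1.10 ± 0.11 on the log2 scale (SE, adjusted p = 1.91e-05, edgeR). It had 8.36 and 8.26 CPM in DMSO iCMs, against 19.0 and 16.5 CPM in fibroblasts. Ccne2, a cyclin of the G1 to S transition, did not pass (-0.08 ± 0.17, adjusted p = 0.754, edgeR). Of its exon bases, 17.4% lie over the antisense gene Ints8, which had 29149 counts summed over the 10 libraries. Ccne2 itself had 131 to 390 counts in each single library, which is not a sum. The Ccne2 value is therefore uncertain unless strand was used in counting. Ccna2, another cyclin, has 12.5% of its exon bases over the antisense gene Exosc9 (12147 counts over the 10 libraries), so the same limit applies to Ccna2. Foxm1, the forkhead factor of the G2 wave, fell by 0.75 ± 0.09 on the log2 scale (adjusted p = 7.83e-05, edgeR). Rrm2, the ribonucleotide reductase subunit that limits deoxynucleotide supply, fell by 0.60 ± 0.10 (adjusted p = 0.000901, edgeR). Of the same class, Mcm5 (-0.28, adjusted p = 0.0973) and Pcna, the sliding clamp (-0.04, adjusted p = 0.804), did not pass in edgeR's test. Mcm5 passed without fibroblast replicate 2 (-0.48, adjusted p = 4.54e-05, edgeR) and with no filter on low counts (-0.29, adjusted p = 0.0288, edgeR). The Pcna value also depended on 1 library: without fibroblast replicate 1 it was 0.16 (adjusted p = 0.0471, edgeR), and without replicate 2 it was -0.20 (adjusted p = 0.0141, edgeR).

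Of the mitotic checkpoint genes, Bub1b, the BubR1 pseudokinase, changed most, at -1.16 ± 0.11, and Bub1 least, at -0.45 ± 0.14 (adjusted p = 1.36e-05 and 0.0289, edgeR). Without fibroblast replicate 1 the change of Bub1 was -0.15 (adjusted p = 0.263, edgeR), and its call was also lost with the compared groups fitted alone (adjusted p = 0.147, edgeR) and without either DMSO library or either ZLN005 library. Cenpf, a large kinetochore protein, showed the greatest fall of all members. It had 13.5 and 13.1 CPM in DMSO iCMs, against 37.9 and 32.9 CPM in fibroblasts. Among spindle motors Kif20a, a kinesin of the central spindle, fell by 1.13 ± 0.08 on the log2 scale (adjusted p = 8.59e-07, edgeR). Of its 75-base windows, 23.3% also belong to the antisense gene Cdc23, whose reads cannot be told apart from its own unless strand was used in counting. Ect2, which activates RhoA at the furrow, showed the smallest change of its class, at -0.54 ± 0.08 (adjusted p = 0.00051, edgeR). Without fibroblast replicate 1 the number of members that fell was 31 and the median change -0.61, and without replicate 2 they were 33 and -0.87.

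**Figure D3:**
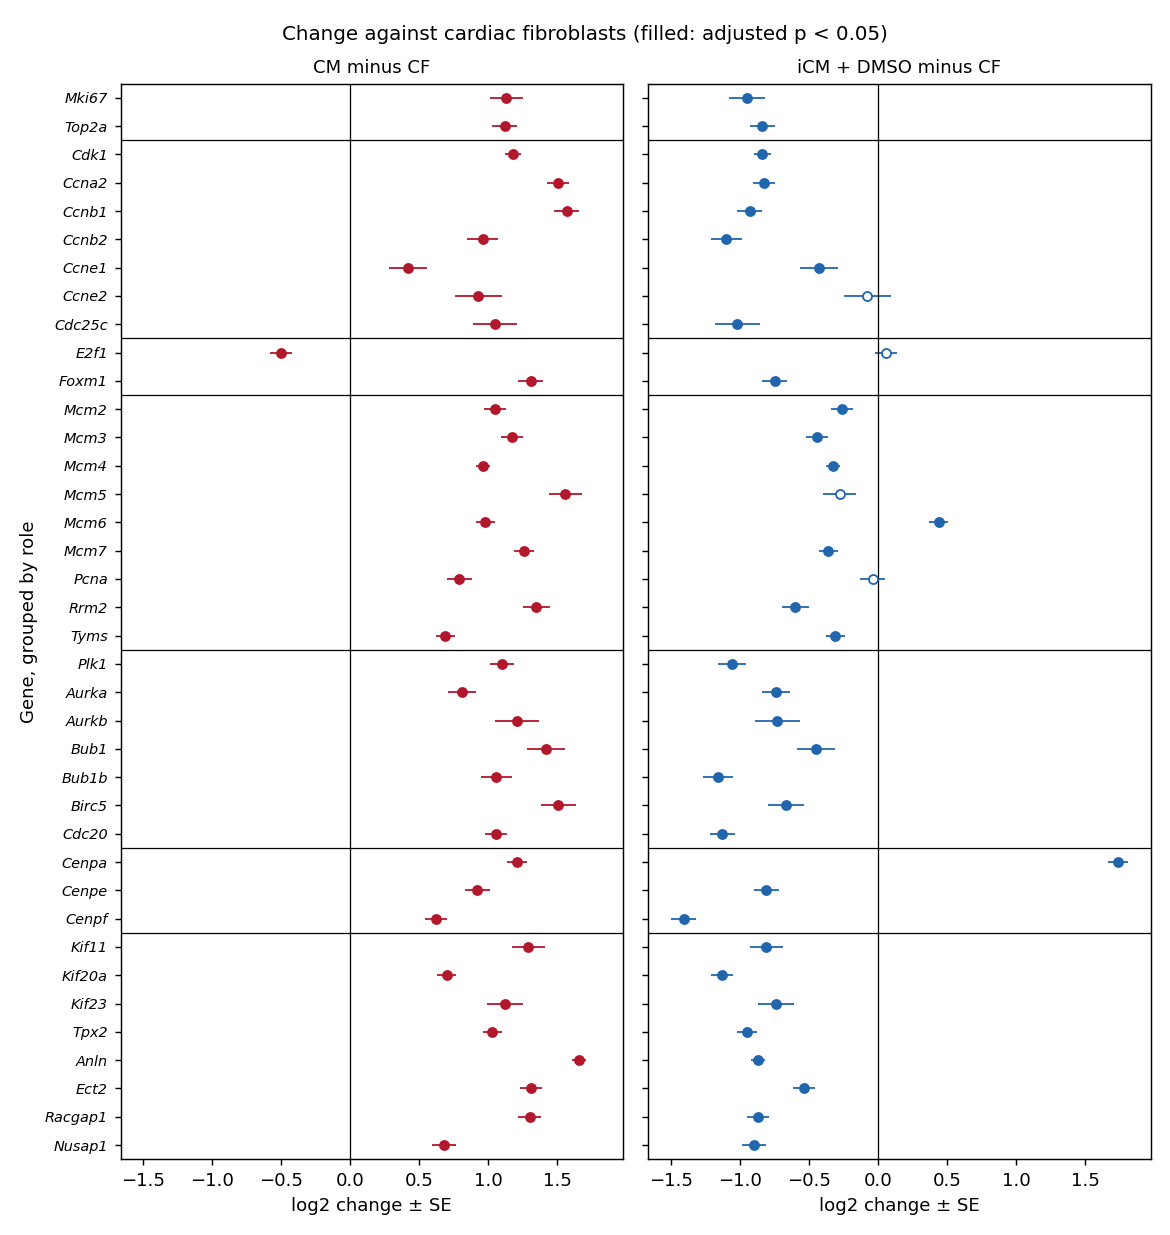
Change of each gene against fibroblasts on the log2 scale, with its SE, for cardiomyocytes (left) and DMSO iCMs (right); filled points pass an adjusted p of 0.05. Nearly all genes lie right of 0 for cardiomyocytes and left of 0 for DMSO iCMs, with E2f1, Mcm6 and Cenpa as the exceptions named in the text.

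Cardiomyocytes at day 3 had more of nearly every member than fibroblasts at day 14. Of 38 members 37 rose and 1 fell, while 34.5% of all genes rose and 36.2% fell. The median member change was 1.11 on the log2 scale, against -0.02 for all genes. Both cardiomyocyte libraries lay above both fibroblast libraries for 37 members (41.2% of all genes) and below for 1 (43.0%). The greatest rise was that of Anln, which was 3.17-fold higher in cardiomyocytes (log2 change 1.66 ± 0.05, adjusted p = 8.23e-10, edgeR). Ccnb1, the main mitotic cyclin, had 89.1 and 92.6 CPM in cardiomyocytes, against 33.2 and 28.0 CPM in fibroblasts, and was 2.97-fold higher. Of its 75-base windows, 18.9% also occur in pseudogenes, so its counts are uncertain to that extent. In the replication class Mcm5 changed most (1.56 ± 0.12) and Tyms, the thymidylate synthase, least (0.69 ± 0.07). Birc5, survivin of the chromosomal passenger complex, was 2.85-fold higher, and Aurka, the spindle pole kinase, 1.75-fold higher. Ccne1 showed the smallest rise, 0.42 ± 0.14 (adjusted p = 0.0202, edgeR), which did not pass without cardiomyocyte replicate 2 (0.29, adjusted p = 0.173, edgeR). E2f1 fell, and is described below.

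These values stood beside differences in cell type markers. The sum of 7 fibroblast markers was 11340 and 11280 CPM in cardiomyocytes, against 22350 and 25210 CPM in fibroblasts, so the cardiomyocyte libraries carried fibroblast transcripts as well. Of these markers 5 averaged lower in cardiomyocytes, while Postn averaged 1748 CPM in cardiomyocytes and 754 CPM in fibroblasts, and Thy1 270 CPM in cardiomyocytes and 228 CPM in fibroblasts. The sum of 5 smooth muscle and pericyte markers was 482 and 470 CPM in cardiomyocytes, against 85.9 and 126 CPM in fibroblasts. Cspg4, at 316 CPM in cardiomyocytes and 20.7 CPM in fibroblasts, and Cnn1, at 133 CPM in cardiomyocytes and 12.5 CPM in fibroblasts, carried this sum. Myh11 went the other way, at 13.7 CPM in cardiomyocytes and 23.6 CPM in fibroblasts, as did Rgs5, at 12.4 CPM in cardiomyocytes and 49.2 CPM in fibroblasts. The sum of 9 endothelial markers was 103 and 95.6 CPM in cardiomyocytes, against 98.3 and 59.7 CPM in fibroblasts, and of its markers Tek, Emcn and Erg averaged lower in cardiomyocytes. Which cells of the cardiomyocyte cultures carry the cell cycle transcripts was not tested.

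Set against iCMs, cardiomyocytes had more of 36 members and less of 2 in each of the 3 comparisons. Of all genes, 34.2% rose and 33.7% fell against ZLN005 iCMs, 33.7% rose and 33.5% fell against GW501516 iCMs, and 34.1% rose and 35.7% fell against DMSO iCMs. The median member change was 2.42 against ZLN005 iCMs, 2.34 against GW501516 iCMs and 1.91 against DMSO iCMs, on the log2 scale, and the 3 comparisons share their cardiomyocyte libraries. In each comparison both cardiomyocyte libraries lay above both iCM libraries for 36 members and below for 2. Of all genes, they lay above for 42.5% and below for 42.7% against ZLN005 iCMs, above for 42.1% and below for 42.8% against GW501516 iCMs, and above for 42.1% and below for 44.4% against DMSO iCMs. Ccnb1 was 8.91-fold higher in cardiomyocytes than in ZLN005 iCMs, 8.26-fold higher than in GW501516 iCMs and 5.66-fold higher than in DMSO iCMs. Mcm6 changed least in its class, at 0.80 ± 0.07, 0.68 ± 0.07 and 0.54 ± 0.07 on the log2 scale in the same order. The 2 members that fell were Cenpa and E2f1 in each case. Against ZLN005 iCMs the fall of E2f1 was small (-0.27 ± 0.08, adjusted p = 0.0166, edgeR) and did not pass without cardiomyocyte replicate 1 or without ZLN005 replicate 1.

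ZLN005 iCMs had lower levels of many mitotic genes than DMSO iCMs. Of 38 members 29 fell and 1 rose, while 8.84% of all genes fell and 6.64% rose. The median member change was -0.42 on the log2 scale, against 0.00 for all genes. For 35 members both ZLN005 libraries lay below both DMSO libraries, as they did for 31.5% of all genes, and for 1 both lay above (29.9%). Mki67 was 1.99-fold lower (log2 change -0.99 ± 0.13, adjusted p = 0.000797, edgeR). Bub1, the checkpoint kinase of the kinetochore, had 5.75 and 5.95 CPM in ZLN005 iCMs, against 10.5 and 11.4 CPM in DMSO iCMs. Cenpe, the kinesin that brings chromosomes to the spindle equator, had 11.1 and 10.7 CPM in ZLN005 iCMs, against 19.9 and 18.2 CPM in DMSO iCMs. Mcm5 had 11.3 and 13.1 CPM in ZLN005 iCMs, against 20.8 and 21.2 CPM in DMSO iCMs. In these 3 genes the groups were well apart, and each fell in the test. The 8 members that did not pass were Ccne1, Ccne2, Mcm7, Pcna, Rrm2, Tyms, Plk1 and Aurkb, with log2 changes between -0.43 and 0.05. The count of falls rested on having both libraries of each group: it was 15 without DMSO replicate 1, 16 without DMSO replicate 2, and 15 without either ZLN005 library. The calls of 12 members held in every setting tried, namely Mki67, Top2a, Ccna2, Ccnb1, Mcm5, Bub1, Bub1b, Cenpa, Cenpe, Cenpf, Tpx2 and Anln.

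GW501516 iCMs also had lower levels of mitotic genes than DMSO iCMs. Of 38 members 18 fell and 1 rose, while 6.96% of all genes fell and 7.80% rose. The median member change was -0.35 on the log2 scale, against -0.01 for all genes, and for 35 members both GW501516 libraries lay below both DMSO libraries (31.4% of all genes) and for 1 above (29.9%). Mki67 was 1.88-fold lower (log2 change -0.91 ± 0.13, adjusted p = 0.0014, edgeR). Bub1 had 5.97 and 6.27 CPM in GW501516 iCMs, against 10.5 and 11.4 CPM in DMSO iCMs. Kif11 had 8.58 and 10.3 CPM in GW501516 iCMs, against 13.9 and 13.1 CPM in DMSO iCMs. Both fell in the test, but Bub1 did not pass without GW501516 replicate 1 (adjusted p = 0.0544, edgeR). Kif11 did not pass with limma-voom (adjusted p = 0.0707), without either DMSO library or without GW501516 replicate 1. Mcm4, another helicase subunit (-0.05 ± 0.05), and Anln (-0.11 ± 0.06) showed the smallest changes of their classes and did not pass. Without DMSO replicate 1 the count of falls was 9, without DMSO replicate 2 it was 11, without GW501516 replicate 1 it was 10 and without GW501516 replicate 2 it was 9. The calls of Mki67, Top2a, Ccnb1, Cenpa, Cenpe, Cenpf and Kif20a held in every setting tried. The comparisons of ZLN005 and of GW501516 with DMSO share the DMSO libraries.

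**Figure D4:**
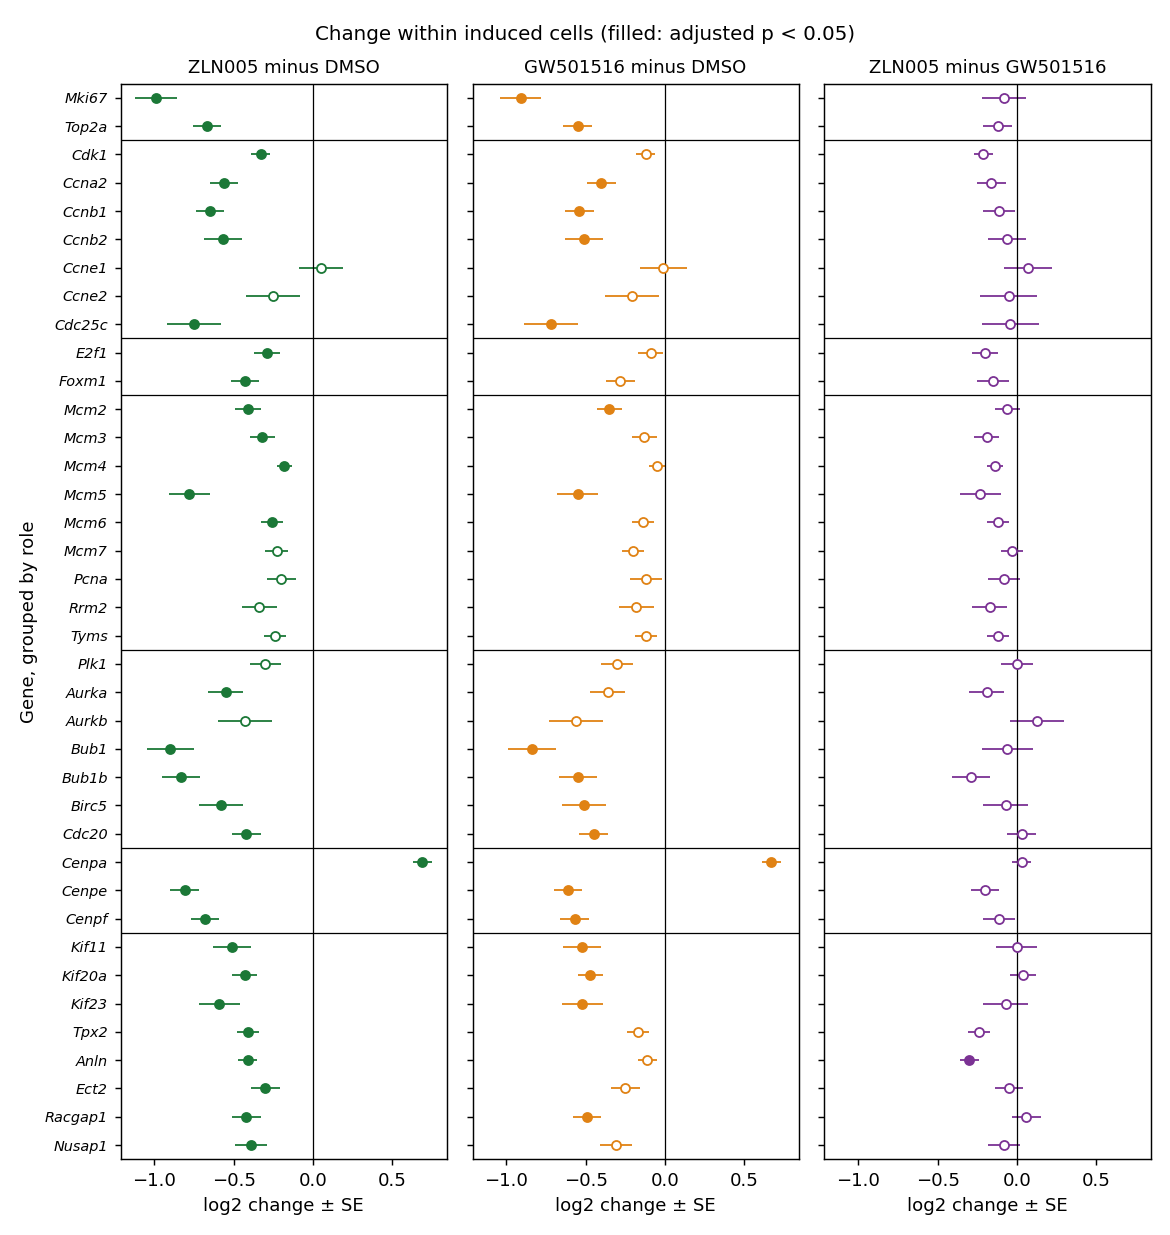
Change of each gene on the log2 scale, with its SE, for ZLN005 iCMs against DMSO iCMs, GW501516 iCMs against DMSO iCMs, and ZLN005 iCMs against GW501516 iCMs; filled points pass an adjusted p of 0.05. Most genes lie left of 0 with either compound, Cenpa lies right of 0, and in the direct comparison of the compounds 1 gene, Anln, passes.

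The compounds were also compared with each other. Between ZLN005 and GW501516 iCMs 1 of 38 members fell and none rose, while 3.52% of all genes fell and 1.54% rose. The member was Anln, at -0.30 ± 0.06 on the log2 scale (95% interval -0.43 to -0.18, adjusted p = 0.0115, edgeR), and it did not pass without GW501516 replicate 2 or without ZLN005 replicate 2. For the other 37 the 95% intervals ran from -0.56 at the lowest to 0.51 at the highest, and 34 of them lay within 0.5 on either side of 0. At an unadjusted p under 0.05, 7 members were lower in ZLN005 iCMs and 0 higher. Both ZLN005 libraries lay below both GW501516 libraries for 22 members (27.7% of all genes) and above for 1 (25.9%). The numbers of falls against DMSO, 29 with ZLN005 and 18 with GW501516, do not themselves test a difference between the compounds.

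Marker sums moved with the compounds as well. The sum of 10 cardiomyocyte markers was 8973 and 9457 CPM in ZLN005 iCMs and 9760 and 9868 CPM in GW501516 iCMs, against 5621 and 5673 CPM in DMSO iCMs. Of its markers 8 averaged higher with either compound, while Myl2 and Myl3 averaged lower with both. The fibroblast marker sum was 8870 and 9124 CPM in ZLN005 iCMs and 10940 and 11130 CPM in GW501516 iCMs, against 14420 and 14060 CPM in DMSO iCMs. The lower sums came from the collagens Col1a1 and Col1a2. With GW501516 the other 5 markers averaged higher than with DMSO, for example Dcn at 168 CPM in GW501516 iCMs and 117 CPM in DMSO iCMs. With ZLN005 Thy1 averaged 623 CPM, against 424 CPM in DMSO iCMs, while Pdgfra, Lum and Postn averaged lower. Dcn overlapped, at 118.8 and 121.4 CPM in ZLN005 iCMs and 112.7 and 120.8 CPM in DMSO iCMs. Macrophage markers, given above, were also lower with either compound. The part of these markers in the fall of the cell cycle genes was not tested.

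Cenpa, the histone H3 variant that marks centromeres, ran against the other members. It lies at chr5:30666777-30674830 on the plus strand of GRCm38. It had 52.1 and 52.3 CPM in cardiomyocytes, 119 and 126 CPM in ZLN005 iCMs, 121 and 119 CPM in GW501516 iCMs, 76.2 and 75.3 CPM in DMSO iCMs, and 24.4 and 20.8 CPM in fibroblasts. Every pair of groups was separate other than the 2 compound groups. Its level was 3.35-fold higher in DMSO iCMs than in fibroblasts (log2 change 1.74 ± 0.07, adjusted p = 9.31e-09, edgeR). It rose further with ZLN005, by 0.69 ± 0.06 (adjusted p = 6.5e-05, edgeR), and with GW501516, by 0.67 ± 0.06 (adjusted p = 9.24e-05, edgeR). In cardiomyocytes it was 2.31-fold higher than in fibroblasts and 1.45-fold lower than in DMSO iCMs. Cenpe and Cenpf, the other 2 centromere proteins, fell in all 3 of the comparisons in which Cenpa rose among the iCMs and fibroblasts. No annotated gene overlaps Cenpa, and 0.74% of its 75-base windows occur in another gene.

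E2f1, a factor that opens S phase, had the narrowest range of group means of the 38 members on a log scale. It lies at chr2:154559407-154569892 on the minus strand. It had 15.4 and 16.8 CPM in cardiomyocytes, 19.5 and 19.2 CPM in ZLN005 iCMs, 21.4 and 23.0 CPM in GW501516 iCMs, 24.98 and 22.3 CPM in DMSO iCMs, and 23.4 and 22.0 CPM in fibroblasts. The GW501516, DMSO and fibroblast libraries overlapped, and the cardiomyocyte libraries were the lowest. E2f1 fell in cardiomyocytes by 0.50 ± 0.08 against fibroblasts (adjusted p = 0.000312, edgeR) and in ZLN005 iCMs by 0.29 ± 0.08 against DMSO iCMs (adjusted p = 0.0392, edgeR). The ZLN005 call was lost with DESeq2 (adjusted p = 0.0662), with the replicate block (adjusted p = 0.0557, edgeR) and in 8 of 10 fits that left out a library. Without DMSO replicate 1 that change was -0.20 (adjusted p = 0.289, edgeR).

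Mcm6, at chr1:128331590-128359664 on the minus strand, had 120 and 120 CPM in cardiomyocytes, 69.8 and 68.2 CPM in ZLN005 iCMs, 74.4 and 75.4 CPM in GW501516 iCMs, 86.1 and 79.4 CPM in DMSO iCMs, and 65.6 and 56.0 CPM in fibroblasts. Unlike the other 5 subunits of its ring, it rose in DMSO iCMs against fibroblasts, by 0.44 ± 0.07 (adjusted p = 0.00044, edgeR). Mcm2, Mcm3, Mcm4 and Mcm7 fell in that comparison, and Mcm5 did not pass. Of the 75-base windows of Mcm7, 13.19% also occur in other genes, so its counts are uncertain to that extent. The call of Mcm2 was lost with the compared groups fitted alone (-0.25, adjusted p = 0.0686, edgeR), and without DMSO replicate 2 its change was -0.19. Lengths were taken over all annotated exons of a gene, merged. Per kilobase of exon, Mcm6 stood at 17.7 CPM in DMSO iCMs, against 13.0 CPM in fibroblasts, and the other helicase subunits at 3.38 to 10.4 CPM in DMSO iCMs. Ccne1 had 11.5 and 13.6 CPM in cardiomyocytes, 7.53 and 6.88 CPM in ZLN005 iCMs, 6.64 and 7.10 CPM in GW501516 iCMs, 6.16 and 7.72 CPM in DMSO iCMs, and 8.78 and 9.89 CPM in fibroblasts. The 3 iCM groups overlapped for Ccne1.

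Other genes of the pathway were read from 4 further lists, also chosen with earlier results of these data known. Of 36 other mitotic genes, 36 fell in DMSO iCMs against fibroblasts, among them Ckap2l, a spindle protein (-1.12 ± 0.08), and Smc4, a condensin subunit (-0.66 ± 0.05). Of the same 36, 21 fell with ZLN005 and 16 with GW501516 against DMSO, and 34 rose in cardiomyocytes against fibroblasts. Of 25 other genes of origin licensing and replication, 12 fell in DMSO iCMs against fibroblasts, 5 fell with ZLN005, 3 fell with GW501516, and 22 rose in cardiomyocytes against fibroblasts. Beside these counts, 19.5% of all genes fell in DMSO iCMs against fibroblasts, 8.84% fell with ZLN005, 6.96% fell with GW501516, and 34.5% rose in cardiomyocytes against fibroblasts. Rrm1, the large ribonucleotide reductase subunit, changed by -0.44 ± 0.04 in DMSO iCMs against fibroblasts.

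Regulators above the cycle were read from the last 2 lists. Of 16 Rb family, E2F and MuvB genes, 4 fell and 1 rose in DMSO iCMs against fibroblasts, while 19.5% of all genes fell and 19.9% rose. The 1 that rose was Rb1, the retinoblastoma protein itself, at 0.43 ± 0.08 (adjusted p = 0.0019, edgeR). In cardiomyocytes against fibroblasts 9 rose and 4 fell, while 34.5% of all genes rose and 36.2% fell, with Mybl2, which encodes B-MYB, at 1.31 ± 0.13 and Rbl2, the p130 pocket protein, at -1.24 ± 0.07. Of 13 D cyclins, G1 kinases and inhibitors, 7 fell and 2 rose in DMSO iCMs against fibroblasts, beside the same shares of all genes. In cardiomyocytes against fibroblasts 8 fell and 3 rose, while 36.2% of all genes fell and 34.5% rose. Ccnd2 averaged 330 CPM in cardiomyocytes and 853 CPM in fibroblasts, and Cdk6 78.3 CPM in cardiomyocytes and 168 CPM in fibroblasts. Cdk2 and Cdk4 averaged higher in cardiomyocytes. Cdkn1a, the p21 inhibitor of cyclin-dependent kinases, had 163 and 161 CPM in cardiomyocytes, 750 and 779 CPM in ZLN005 iCMs, 641 and 626 CPM in GW501516 iCMs, 557 and 552 CPM in DMSO iCMs, and 316 and 312 CPM in fibroblasts. No 2 groups overlapped for Cdkn1a, and its order from high to low was ZLN005, GW501516 and DMSO iCMs, fibroblasts, cardiomyocytes. It rose in DMSO iCMs against fibroblasts by 0.82 ± 0.04, with ZLN005 against DMSO by 0.46 ± 0.04, with GW501516 against DMSO by 0.19 ± 0.04, and with ZLN005 against GW501516 by 0.27 ± 0.04. Cdkn1b, the p27 inhibitor, fell by 0.96 ± 0.05 in DMSO iCMs against fibroblasts. Cdkn2a fell by 0.93 ± 0.16 with ZLN005 against DMSO and by 0.92 ± 0.16 with ZLN005 against GW501516. Its locus encodes both p16 and p19ARF, which gene counts do not separate.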

How the data were processed

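RNA was extracted with TRIzol and made into Illumina TruSeq libraries, per the labels' protocols. The authors deposited raw counts per gene. Per the submitters' processing notes, the tools included Trimmomatic 0.36, HISAT2, SAMtools and featureCounts of Subread 1.5.1, with the mm10 build. The annotation, the strand setting and how multiply mapped reads were treated were not given in the sources used here.

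Counts were tested with edgeR 4.0.16 (R 4.3.3): TMM scaling, filterByExpr with a minimum count of 10, and quasi-likelihood tests in 1 fit of 10 libraries in 5 groups, with Benjamini-Hochberg adjustment over 15740 genes and calls at 0.05. The SE of a log2 change is its size divided by the square root of F. CPM values use TMM library sizes. With 2 libraries per group, p-values measure the spread between libraries, which may be technical. In simulated data false calls exceeded the nominal share in most comparisons, so calls near the threshold are less certain. Alternatives used DESeq2 1.42.0, its size factors, limma-voom (limma 3.58.1), no filter, the compared groups alone, a replicate block, and each library left out.

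Within each role class the most abundant member, and the largest and smallest changes, were named, with members called against the majority and those not called where few. The members, lists and naming rule were chosen with earlier results of these data known. Landmark genes beyond that rule (Mki67, Kif11, Ccnb1, Ccne1, Cdkn1a in every library) were chosen after their values were seen. Locations are from GENCODE M21 (GRCm38, the same assembly as mm10), and promoters from RefSeq (GRCm38.p6). The RefSeq and GENCODE starts differ for some genes, and up to 26 bases of a printed stretch lie inside the GENCODE gene.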

Additional observations from a re-analysis of the deposited data

How the results depend on the processing

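With 2 libraries per group, the counts of falls against DMSO were the least stable. Leaving out each library in turn, the number of members lower in ZLN005 iCMs than in DMSO iCMs ranged from 15 to 35, and in GW501516 iCMs from 9 to 26. Across the other settings these numbers ranged from 23 to 35 and from 12 to 25. Members lower in ZLN005 than in GW501516 iCMs numbered 2 when the compared groups were fitted alone and 0 to 3 with a library left out. Members lower in cardiomyocytes than in ZLN005 iCMs numbered 1 to 2 with a library left out. Members lower in DMSO iCMs than in fibroblasts ranged from 28 to 33. Pcna in DMSO iCMs against fibroblasts turned to 0.16 on the log2 scale without fibroblast replicate 1, and was -0.20 without replicate 2. The cause of these shifts was not tested. Ccne1 in cardiomyocytes against fibroblasts did not pass without 1 cardiomyocyte library. Of the members called, 30 of 34 (DMSO iCMs against fibroblasts), 12 of 30 (ZLN005), 7 of 19 (GW501516) and 37 of 38 (cardiomyocytes against fibroblasts) passed in every setting. Same-numbered libraries did not deviate together (r from 0.00 to 0.04 over 10 pairs), so the numbers were not taken as pairs. With the number as a replicate block, 32 members fell in DMSO iCMs against fibroblasts, 26 with ZLN005 and 19 with GW501516. Depth did not limit detection of any member.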

Other observations

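Per kilobase of exon, Pcna, the sliding clamp, had a mean of 40.1 CPM per kilobase in cardiomyocytes, 19.8 in ZLN005 iCMs, 20.8 in GW501516 iCMs, 22.7 in DMSO iCMs and 23.3 in fibroblasts. Of its 75-base windows, 13.85% also occur in a pseudogene. In ZLN005 iCMs Cenpa stood at 20.9 CPM per kilobase, in GW501516 iCMs at 20.5, in DMSO iCMs at 12.9 and in fibroblasts at 3.86. Its level per length in fibroblasts was close to that of Cenpe, at 3.88, whereas in ZLN005 iCMs Cenpe stood at 1.26. The merged annotated exons came to 5860 bases for Cenpa and 8620 for Cenpe. Which exons were transcribed was not measured, so comparisons per length between genes are uncertain. Cdc25c, the phosphatase that activates Cdk1, was the least abundant member in the iCMs per length, at 0.35 in ZLN005 iCMs, 0.359 in GW501516 iCMs and 0.591 in DMSO iCMs, against 1.2 in fibroblasts. Of the exon bases of Cdc25c, 12.7% lie over the antisense gene Gm3550.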
